A study of Mus musculus with 16 samples.

Results

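The Hedgehog pathway was followed across 9 genes in whole ovaries of mice aged 1 year: the ligands Dhh, Ihh and Shh, the receptors and binding proteins Ptch1, Smo and Hhip, and the transcription factors Gli1, Gli2 and Gli3. The genes were picked by symbol, as every array probe whose listed gene name, or whose accession's present symbol, was one of these 9. That gave 16 of the 41174 probes on the array. Of the 16 probes, 13 passed the filter on dim probes, and they stood for 8 of the 9 genes among 24590 features tested. Shh did not pass.

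There were 16 arrays in 4 groups of 4. Control ovaries had one allele of each ER, the estrogen receptor. Ex3aERKO ovaries came from ERα knockout mice, Ex3bERKO ovaries from ERβ knockout mice, and Ex3abERKO ovaries from mice without either receptor. The labels name no treatment, do not say which part of either gene was removed, and leave it unsaid whether the replicates were different mice. The p-values therefore measure only how far these samples spread, which may be technical. An array is called by its group and the number in its label.

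Hedgehog ligands are secreted proteins that bind Ptch1 on the receiving cell. Ptch1 without ligand holds back Smo, and ligand binding frees Smo to act through the Gli factors at the primary cilium, a small antenna of the cell surface. Gli1, Ptch1 and Hhip are themselves switched on by the pathway, so their RNA is widely read as a measure of it. In the ovary, granulosa cells of growing follicles are the known source of Ihh and Dhh, and theca cells around the follicle and other mesenchymal cells receive the signal. In the testis, Dhh comes from Sertoli cells.

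Signal was even across the arrays, with a 75th percentile of 1211 to 1806 intensity units and 80.4% to 87.6% of spots well above background, and arrays of a group correlated at 0.955 to 0.986. A level below is log2 of the signal divided by the 75th percentile of its own array, so 0 is that percentile, and levels of different probes are not compared with each other. The targeted genes were read first. In Ex3aERKO and Ex3abERKO, Esr1 (ERα) reached at most -1.89 and -1.04, where its lowest control array read -0.32 and its Ex3bERKO arrays ran from -1.06 to 0.34. Esr2 (ERβ) reached at most -1.61 in Ex3abERKO, where its lowest control array read -0.33, and was up to 1.58 in Ex3aERKO. It was not called in Ex3bERKO against control (difference 0.43, limma adjusted p = 0.912), and a probe outside the removed part checks no label. Where the probe lies relative to that part is not known here, so the group names are used as labelled.

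Ihh and Hhip were the members that differed most between groups. The bases just before their transcription starts are shown because both genes lay lowest in Ex3abERKO. Each sequence is the 250 bases before the RefSeq start in GRCm38.p6, on the strand of the gene, with CG pairs, the sites of DNA methylation, in capitals.
Ihh, chr1:74951673-74951922, minus strand: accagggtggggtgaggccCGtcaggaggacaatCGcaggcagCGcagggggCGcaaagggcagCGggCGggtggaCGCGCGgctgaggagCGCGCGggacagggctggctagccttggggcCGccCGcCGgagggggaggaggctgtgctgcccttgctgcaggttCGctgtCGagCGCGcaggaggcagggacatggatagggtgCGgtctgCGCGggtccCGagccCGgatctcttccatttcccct
Hhip, chr8:80058009-80058258, minus strand: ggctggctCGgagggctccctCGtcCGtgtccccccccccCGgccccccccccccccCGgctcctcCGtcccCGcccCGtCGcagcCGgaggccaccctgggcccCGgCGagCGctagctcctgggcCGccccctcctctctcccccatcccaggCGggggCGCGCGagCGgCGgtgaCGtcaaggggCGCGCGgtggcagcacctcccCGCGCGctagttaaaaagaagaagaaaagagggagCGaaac
Both stretches were rich in CG. With the 50 bases after the start added, the Ihh and the Hhip promoter each held 30 CG pairs, where the median over 32851 mouse promoters of that length was 7 and 11.7% held as many or more. That was not particular to these genes: Ptch1 held 47 (1.44% of promoters held as many or more), Gli3 39 (4.45%), Gli2 28, Smo 17 and Dhh 12. Of the 9 genes, 7 had an entry in the promoter table, and Gli1 and Shh are named only. The GLI motif GACCACCCA was in none of the 7 on either strand, and it was in 0.253% of all promoters. The estrogen response element (GGTCA and TGACC with 3 bases between) was also in none, and it was in 0.07% of all promoters. The shorter motif GGTCA, added after those searches gave no match and contained in the longer element, was in 1 of the 7, Gli3, and in 40.5% of all promoters. These counts say only which letters the windows hold.

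**Figure D1:**
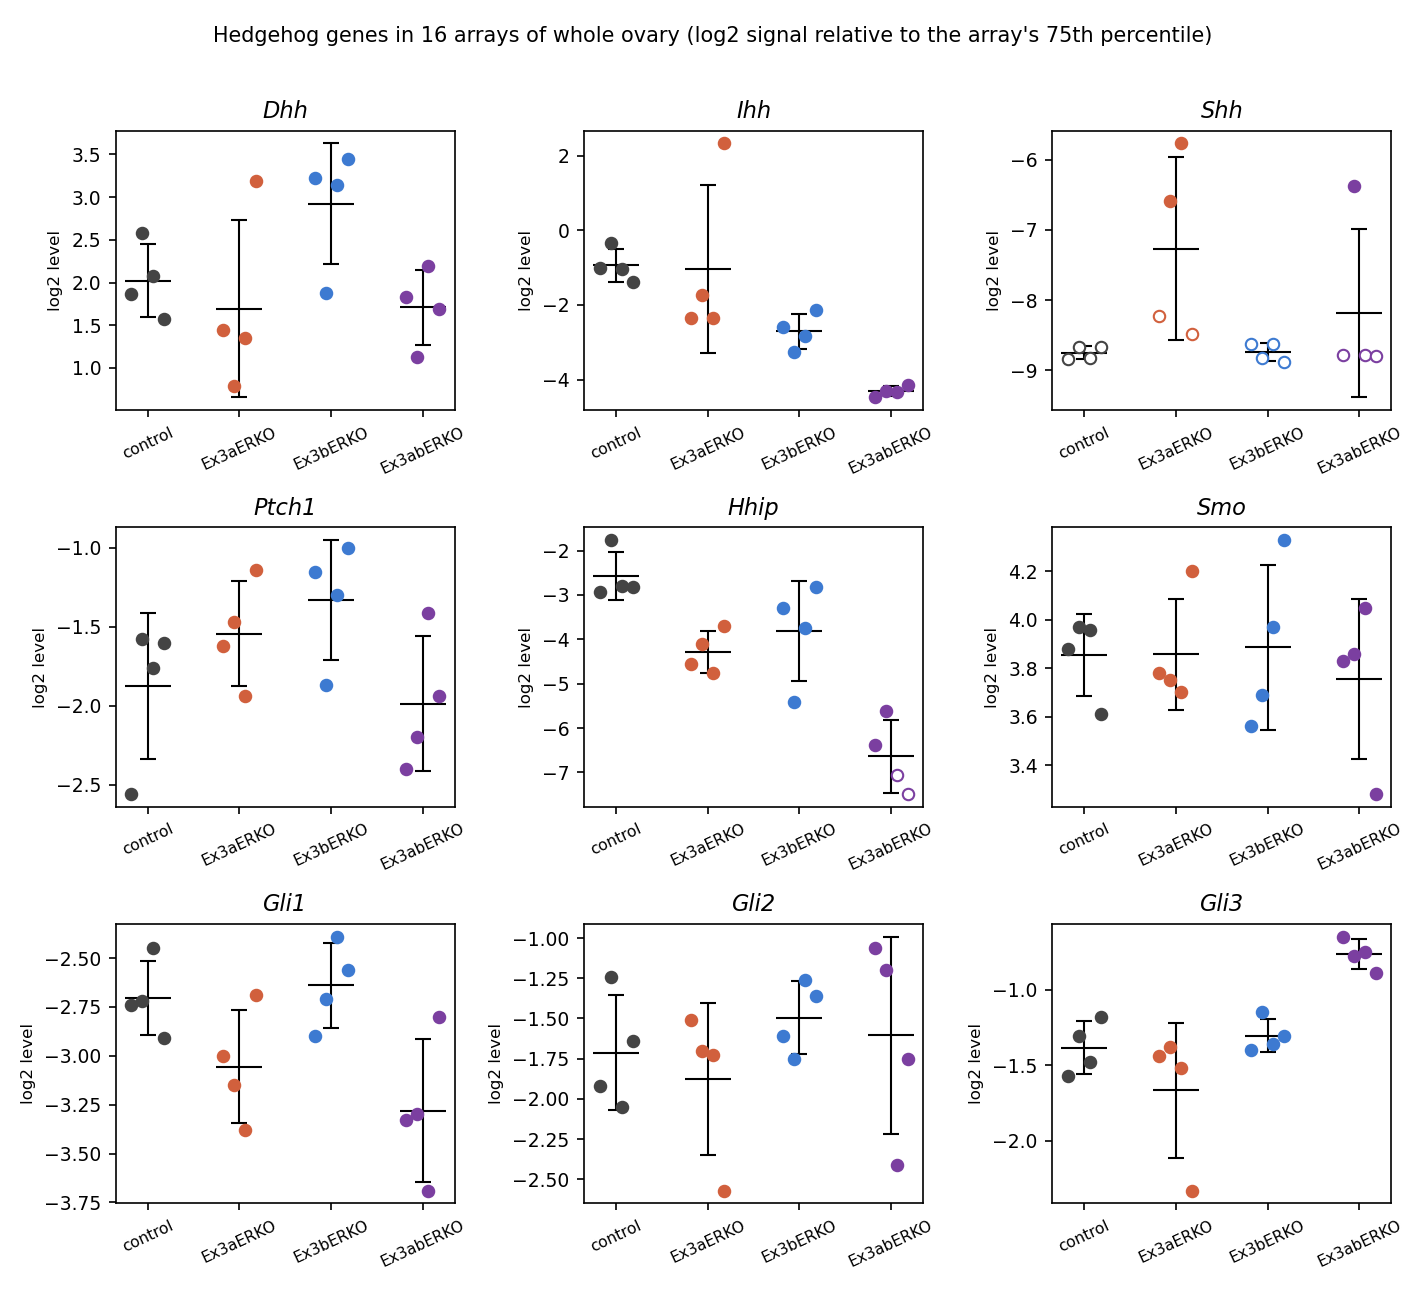
Log2 level (y axis, relative to the array's 75th percentile) of the 9 genes in the 4 groups (x axis), 1 point per array, with the group mean and SD as a line and bar; filled points were well above background and open points were not. The 4 Ex3abERKO arrays lay below all others for Ihh and Hhip and above all others for Gli3, and Ex3aERKO 4 stood apart for Ihh at 2.33.

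Ihh fell in the ovaries without either receptor. Control replicates 1 to 4 read -1.01, -0.34, -1.03 and -1.38. In Ex3aERKO the order of replicates gave -2.36, -1.74, -2.36 and 2.33. In Ex3bERKO it was -2.60, -3.27, -2.83 and -2.14, and in Ex3abERKO it was -4.48, -4.30, -4.33 and -4.14. The Ex3abERKO arrays lay below every other array and within 0.34 of each other. All Ex3bERKO arrays and 3 of the 4 Ex3aERKO arrays lay below all control arrays, while Ex3aERKO 4 lay above every other array of the series.

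Ihh was 10.4-fold lower in Ex3abERKO than in control, a log2 difference of -3.38 ± 0.76 (SE; limma, adjusted p = 0.00593). Within slides 1, 2 and 4, the slides that held both groups, the differences were -3.31, -3.02 and -3.12, and with slide as a block the difference was -3.22 (adjusted p = 0.0115). Against Ex3aERKO the difference was -3.28 ± 0.76 (adjusted p = 0.0176), with -2.59, -2.04 and -6.48 within slides 1, 2 and 4 and -3.13 (adjusted p = 0.0305) with slide as a block, and without Ex3aERKO 4 it was -2.16 (adjusted p = 0.00164). This second call was lost when only those groups were fitted (adjusted p = 0.112), with a normexp background correction (adjusted p = 0.0753), and without 3 arrays that carried the most signal of liver genes (Ex3aERKO 2), oviduct genes (Ex3abERKO 2) and red blood cell genes (control 4), at an adjusted p of 0.0687.

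In the single knockouts Ihh did not pass the test. The difference from control was -0.09 (95% interval -1.73 to 1.54, limma adjusted p = 0.973) in Ex3aERKO and -1.77 (interval -3.41 to -0.14, adjusted p = 0.447) in Ex3bERKO. The Ex3bERKO and control arrays did not overlap, which held on the lower side for 4.23% of all features. These calls turned on the array Ex3aERKO 4. Without it Ihh was lower in Ex3aERKO than in control (-1.21, adjusted p = 0.0157), lower in Ex3bERKO (-1.77, adjusted p = 0.00508), and lower in Ex3abERKO than in Ex3bERKO (-1.60, adjusted p = 0.00127, against 0.174 with it). The last also passed with only those groups fitted (adjusted p = 0.00856). Ex3bERKO against control did not pass when only those groups were fitted, with 0 members called. Ex3aERKO 4 is in neither of these 2 comparisons, so leaving it out changed only the spread shared by all groups.

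A second Ihh probe, 1 spot against the 10 of the first, gave the same order of group means, -0.77 in control, -1.34 in Ex3aERKO, -2.51 in Ex3bERKO and -4.94 in Ex3abERKO. The 2 probes lay at mm7 positions 75185454 to 75185513 and 75187527 to 75187586 of chromosome 1 and correlated at r = 0.98 over the 16 arrays. In the fit over all 36226 kept probes, the second was lower in Ex3abERKO than in control (-4.17 ± 0.84, limma adjusted p = 0.00287). The high level in Ex3aERKO 4 was also read by both, at 2.33 each.

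**Figure D2:**
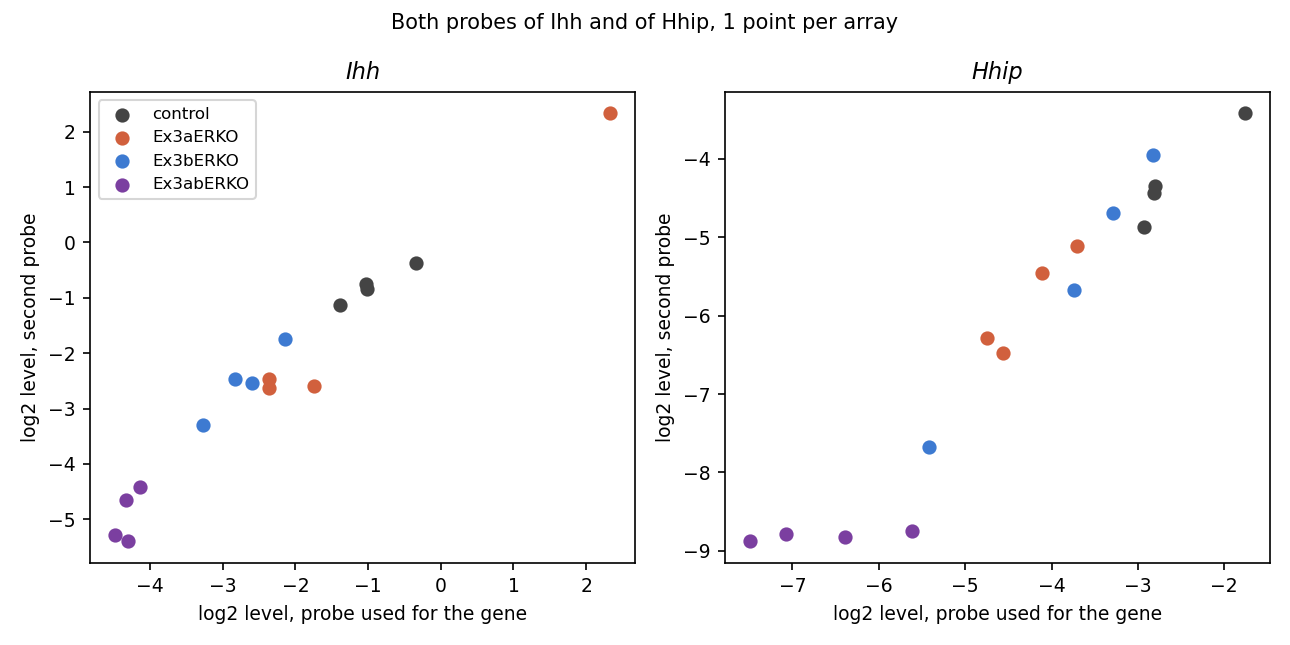
Log2 level of the probe that stands for the gene (x axis) against the gene's second probe (y axis) for Ihh and Hhip, 1 point per array, coloured by group. The probes of each gene correlated (r = 0.98 and r = 0.97), and the second Hhip probe was near its floor, below -8.7, on all 4 Ex3abERKO arrays.

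Dhh, the other ligand that was well above background on every array, was not called in any comparison. Its level was 1.86, 2.58, 2.08 and 1.57 in control, and 1.44, 0.79, 1.35 and 3.19 in Ex3aERKO. It was 3.22, 1.88, 3.14 and 3.45 in Ex3bERKO, and 1.83, 1.13, 2.19 and 1.69 in Ex3abERKO. The group means ran from Ex3bERKO (2.92 ± 0.71 SD) through control (2.02 ± 0.43) to Ex3abERKO (1.71 ± 0.44) and Ex3aERKO (1.69 ± 1.04), and all neighbouring groups overlapped. The widest differences were Ex3aERKO minus Ex3bERKO, -1.23 ± 0.46 (limma adjusted p = 0.235), and Ex3abERKO minus Ex3bERKO, -1.21 ± 0.46 (adjusted p = 0.0878). The first passed the test with array weights (-1.60, adjusted p = 0.0215) and when Ex3aERKO 4 was left out (-1.73, adjusted p = 0.0218). The second passed without Ex3aERKO 4 (adjusted p = 0.0253), without Ex3bERKO 2 (adjusted p = 0.0300) and with array weights (adjusted p = 0.0107). Ex3aERKO 4 again held the highest value of its group.

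Shh was near the floor on most arrays. Its probe, printed in 10 spots, had most spots well above background on 3 arrays only: Ex3aERKO 2 with 10 spots, Ex3aERKO 3 with 10 and Ex3abERKO 2 with 7. Those arrays read -6.59, -5.77 and -6.38, and the other 13 lay between -8.88 and -8.23 with at most 1 spot above background. All control and Ex3bERKO arrays were among the 13. No test was made, since the gene did not pass the filter.

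The 3 arrays with Shh signal were also the 3 highest in the summed signal of 9 oviduct genes, the epithelium of the tube beside the ovary. The sum, in multiples of the 75th percentile, was 31.1 in Ex3aERKO 2, 31.6 in Ex3aERKO 3 and 82.7 in Ex3abERKO 2. The control arrays had sums of 1.10 to 1.45 and the Ex3bERKO arrays of 2.01 to 2.80, and the lowest sums of the other groups were 7.06 in Ex3aERKO and 8.36 in Ex3abERKO. All 9 genes were well above background on every knockout array and 7 of them on every control array. Most of the sum in Ex3aERKO 2 and 3 came from 1 gene, the secreted protein Wfdc2, at 28.6 and 27.5, and Wfdc2 was as high as 24.5 in Ex3abERKO 3, where the oviduct sum was 25.3 and Shh read -8.78. Without Wfdc2, a sum added after its levels were seen, the other 8 genes gave 52.9 in Ex3abERKO 2, 4.16 in Ex3aERKO 3 and 2.47 in Ex3aERKO 2, and at most 1.69 on the other arrays. Foxj1, which directs motile cilia, read -0.10 in Ex3aERKO 2, -5.09 in Ex3aERKO 3 and 1.95 in Ex3abERKO 2. The part of oviduct RNA in the Shh signal was not tested.

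**Figure D3:**
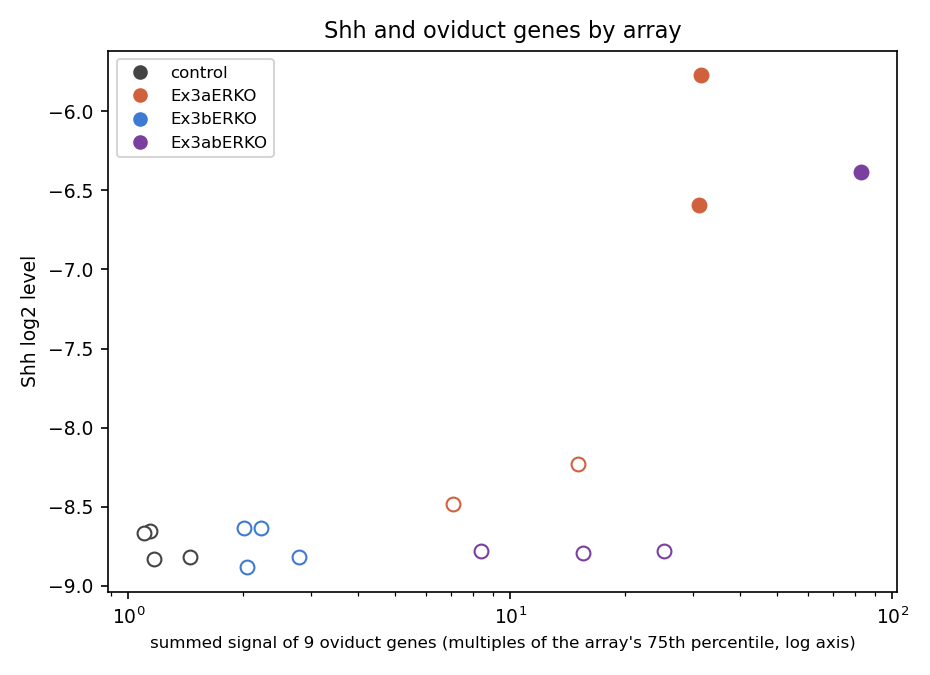
Shh log2 level (y axis) against the summed signal of 9 oviduct genes (x axis, log scale, multiples of the array's 75th percentile), 1 point per array; filled points are arrays with more than 50% of the Shh spots well above background. The 3 filled points, between -6.59 and -5.77, lie at the 3 largest oviduct sums.

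Hhip, the membrane protein that binds all 3 ligands and keeps them from Ptch1, differed from control in Ex3abERKO by more than the other 7 tested genes, except with a normexp background correction, where Ihh differed by more (-2.64 against -2.32). Its level was -2.93, -1.76, -2.80 and -2.81 in control and -4.56, -4.11, -4.75 and -3.71 in Ex3aERKO. It was -3.29, -5.42, -3.74 and -2.82 in Ex3bERKO and -6.39, -5.61, -7.07 and -7.49 in Ex3abERKO. The Ex3abERKO arrays lay below all others, and only 2 of them were well above background for this probe. The Ex3aERKO arrays lay between control and Ex3abERKO with no overlap on either side, and the Ex3bERKO arrays overlapped with both control and Ex3aERKO.

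Hhip was 16.8-fold lower in Ex3abERKO than in control, a log2 difference of -4.07 ± 0.52 (limma adjusted p = 0.000154), with -4.15, -3.19 and -4.69 within slides 1, 2 and 4. The size, though not the call, depended on the background correction: with normexp the difference was -2.32. Against Ex3aERKO the difference was -2.36 ± 0.52 (adjusted p = 0.0134), with -2.96, -1.25 and -3.78 within slides 1, 2 and 4. Against Ex3bERKO it was -2.83 ± 0.52 (adjusted p = 0.00254), with -1.65 and -3.75 within slides 1 and 4. With normexp these differences were -0.71 (adjusted p = 0.359) and -1.03 (adjusted p = 0.0741). With slide as a block the 3 differences were -3.94, -2.23 and -2.58, all called. The call against Ex3aERKO was lost without 4 arrays together (Ex3aERKO 4 and the 3 named above, adjusted p = 0.133).

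The difference of Hhip between Ex3aERKO and control, -1.71 (interval -2.81 to -0.61), had an adjusted p of 0.0572 in limma and did not pass. Values of the 2 groups did not overlap, which held on the lower side for 9.43% of all features. It passed with slide as a block (adjusted p = 0.0430), with only those groups fitted (0.0205), with normexp (0.0134) and without Ex3aERKO 4 (0.0470), Ex3bERKO 2 (0.0171), Ex3bERKO 4 (0.0486) or Ex3abERKO 2 (0.0473). Hhip in Ex3bERKO differed from control by -1.24 (interval -2.35 to -0.14, adjusted p = 0.414).

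The second Hhip probe was well above background on every control and Ex3aERKO array, on 3 of 4 Ex3bERKO arrays and on no Ex3abERKO array. For it only an approximate bound can be given, the brighter group's mean against the lowest signal of any probe well above background on the dim arrays. By that bound Hhip was at least about 5.36-fold lower in Ex3abERKO than in control, 1.81-fold lower than in Ex3aERKO and 2.29-fold lower than in Ex3bERKO. The bounds were not tested. The measured levels, near the floor in Ex3abERKO, differed by -4.54 (limma adjusted p = 0.000204), -2.97 (adjusted p = 0.00934) and -3.31 (adjusted p = 0.00257). The 2 probes correlated at r = 0.97 over the 16 arrays.

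Ptch1, the receptor that is both brake and target of the pathway, was not called in any comparison. The control arrays lay between -2.56 and -1.58 and the Ex3aERKO arrays between -1.94 and -1.14. The Ex3bERKO arrays lay between -1.87 and -1.0 and the Ex3abERKO arrays between -2.40 and -1.41, so all groups overlapped. Against control, Ex3aERKO differed by 0.33 (95% interval -0.26 to 0.93), Ex3bERKO by 0.54 (-0.05 to 1.14) and Ex3abERKO by -0.11 (-0.71 to 0.48), with limma adjusted p-values of 0.592, 0.573 and 0.832. The difference between Ex3abERKO and Ex3bERKO was -0.66 (adjusted p = 0.123), and it passed the test with array weights (-0.84, adjusted p = 0.0259), without Ex3abERKO 3 (-0.85, adjusted p = 0.0429) and with the mean of the kept probes (-0.74, adjusted p = 0.0333). These values came from the brightest Ptch1 probe, 1 spot named by the symbol in the array files. The second Ptch1 probe, of 10 spots and named by accession, correlated little with the first over the 16 arrays (r = 0.189). It was well above background on every array but Ex3abERKO 3. Its difference in Ex3abERKO was -0.70 ± 0.35 (adjusted p = 0.167).

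Smo, the membrane protein that passes the signal on, was not called in any comparison by its brightest probe. Its level ran from 3.61 to 3.97 in control and from 3.28 to 4.33 over the 12 knockout arrays. Against control, Ex3aERKO differed by 0.0044 (interval -0.43 to 0.44), Ex3bERKO by 0.03 (-0.40 to 0.47) and Ex3abERKO by -0.10 (-0.53 to 0.33), and none was called. A second kept probe disagreed: in the fit over all kept probes it was lower in Ex3abERKO than in control (-0.88 ± 0.27, limma adjusted p = 0.0282), with overlapping values and -1.64, 0.01 and -1.14 within slides 1, 2 and 4. Another Smo probe was above background on 1 array and was not used.

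Gli1, the activator whose own transcription follows the pathway, was called in 1 comparison. Its level was -2.74, -2.72, -2.45 and -2.91 in control and -3.00, -3.15, -3.38 and -2.69 in Ex3aERKO. It was -2.90, -2.71, -2.39 and -2.56 in Ex3bERKO and -3.33, -3.30, -3.69 and -2.80 in Ex3abERKO. Of the Ex3abERKO arrays, 3 lay below all control and Ex3bERKO arrays, and Ex3abERKO 4 lay among them. Gli1 was lower in Ex3abERKO than in Ex3bERKO (-0.64 ± 0.20, limma adjusted p = 0.0426), with -0.97 and -0.41 within slides 1 and 4. That call was lost in 17 of 30 alternatives, among them slide as a block (adjusted p = 0.0596) and the replicate block (0.0608), and it was lost without control 1, control 2, Ex3aERKO 1, Ex3aERKO 2, Ex3bERKO 2, 3 or 4, or Ex3abERKO 1, 2 or 3 (adjusted p from 0.0532 to 0.120). Against control Gli1 differed by -0.57 ± 0.20 (adjusted p = 0.0545), a value past the threshold in 8 of 30 alternatives. In Ex3aERKO and Ex3bERKO the differences from control were -0.35 (adjusted p = 0.370) and 0.07 (adjusted p = 0.981).

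Gli3, the main repressor among the Gli factors, rose in Ex3abERKO. Its level was -1.57, -1.31, -1.48 and -1.18 in control and -1.44, -1.38, -1.52 and -2.33 in Ex3aERKO. It was -1.40, -1.15, -1.36 and -1.31 in Ex3bERKO and -0.65, -0.78, -0.75 and -0.89 in Ex3abERKO. The Ex3abERKO arrays lay above all 12 others, the control and Ex3bERKO arrays overlapped, and Ex3aERKO 4 was the lowest of the series. Gli3 was higher in Ex3abERKO than in control by 0.62 ± 0.19 (1.53-fold, limma adjusted p = 0.0293), with 0.83, 0.47 and 0.58 within slides 1, 2 and 4. Against Ex3aERKO it was higher by 0.90 ± 0.19 (adjusted p = 0.0108), with 0.63, 0.81 and 1.43 within those slides. Against Ex3bERKO the difference of 0.54 ± 0.19 did not pass (adjusted p = 0.0643), but passed without Ex3aERKO 4 (0.00982), with array weights (0.0186) and without Ex3aERKO 4 and the 3 arrays named above (0.0410).

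The Gli3 values rested on 1 probe at mm7 positions 15096631 to 15096690 of chromosome 13, which was named by the symbol in the array files. A second probe of 10 spots, named by accession and at positions 15093858 to 15093917, was well above background on no array, so the rise was read by the first probe alone. The call against control was lost with normexp (0.38, limma adjusted p = 0.297), which also moved the median difference of all features by -0.258. That call was lost, too, without control 1 (adjusted p = 0.0837), control 3 (0.0783), Ex3abERKO 1 (0.0639) or Ex3abERKO 2 (0.0594), and without the 3 arrays named above (0.0676). The call against Ex3aERKO was lost with normexp (0.0575), with only those groups fitted (0.0885), and without those 3 arrays and Ex3aERKO 4 (0.0940).

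Gli2, the main activator in many tissues, was not called in any comparison. The control arrays lay between -2.05 and -1.24 and the Ex3aERKO arrays between -2.57 and -1.51. The Ex3bERKO arrays lay between -1.75 and -1.26 and the Ex3abERKO arrays between -2.41 and -1.06, so all groups overlapped. The differences of Ex3aERKO, Ex3bERKO and Ex3abERKO from control were -0.17 (interval -0.81 to 0.48), 0.22 (-0.42 to 0.86) and 0.11 (-0.53 to 0.75). Its 2 probes did not follow each other over the arrays (r = -0.123).

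**Figure D4:**
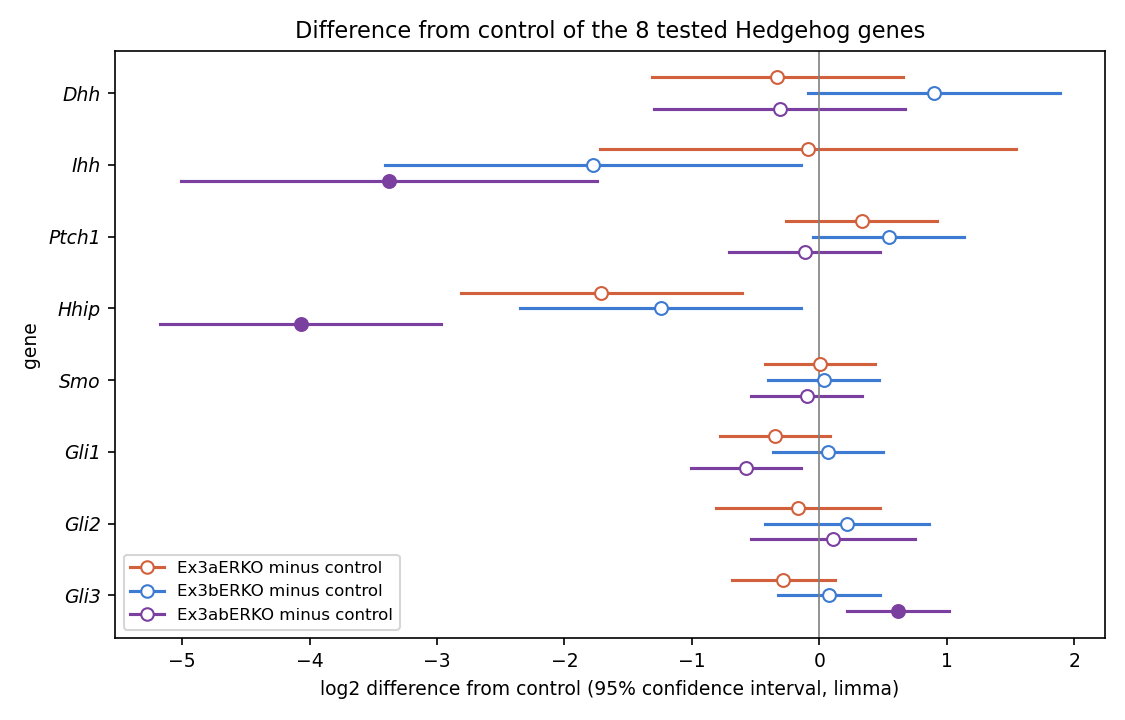
Log2 difference from control (x axis) of the 8 tested genes (y axis) in each knockout, with 95% confidence intervals from limma; filled points had an adjusted p under 0.05. Only the Ex3abERKO points of Ihh (-3.38), Hhip (-4.07) and Gli3 (0.62) are filled.

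Counted over the 8 tested genes, 0 were called in Ex3aERKO against control, where 7.89% of all features were, and 1 had an unadjusted p under 0.05. In Ex3bERKO 0 were called against 1.00% of features, with 2 at an unadjusted p under 0.05. In Ex3abERKO 3 were called, 1 higher and 2 lower, where 22.2% of all features were called, 10.6% higher and 11.6% lower. Ex3abERKO against Ex3aERKO gave 3 (7.71% of features), 1 higher (4.40%) and 2 lower (3.30%), Ex3abERKO against Ex3bERKO gave 2, both lower (16.6%, of which 8.38% lower), and Ex3aERKO against Ex3bERKO 0 (2.30%, with 2 members at an unadjusted p under 0.05). Groups that did not overlap gave a like list: Ihh and Hhip lay lower and Gli3 higher in Ex3abERKO than in each other group, where 13.3%, 6.07% and 10.2% of features did so on the lower side and 11.6%, 7.79% and 9.15% on the higher side against control, Ex3aERKO and Ex3bERKO. These comparisons share arrays. The median difference of the 8 genes from control was -0.22 in Ex3aERKO, 0.07 in Ex3bERKO and -0.21 in Ex3abERKO, where over all features it was -0.08, 0.0093 and -0.11.

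The interaction, which asks whether the loss of ERβ had the same effect with and without ERα, was called for none of the 8 genes in limma (3.52% of features were), and 2 had an unadjusted p under 0.05. These were Gli3 at 0.82 ± 0.27 (adjusted p = 0.118) and Ptch1 at -0.99 ± 0.39 (adjusted p = 0.214). For Hhip it was -1.11 (interval -2.67 to 0.44) and for Ihh -1.51 (interval -3.82 to 0.80).

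Proteins that help the receiving cell bind ligand or move Smo were the pathway list with most calls. Of 10 such genes, 5 rose in Ex3abERKO against control and 0 fell, where 10.6% of all features rose and 11.6% fell. Gas1, a surface co-receptor, rose by 1.88 ± 0.34 (limma adjusted p = 0.00154). Its level was -0.50, -0.48, 0.10 and 0.24 in control and 1.64, 1.87, 1.85 and 1.49 in Ex3abERKO, with no overlap (11.6% of features lay higher without overlap). Arrb2 and Arrb1, β-arrestins that assist Smo traffic, rose by 1.14 ± 0.15 (adjusted p = 0.000193) and 0.80 ± 0.16 (adjusted p = 0.00227). Lrp2, an endocytic receptor, rose by 1.30 ± 0.37 (adjusted p = 0.0214) and Boc, another co-receptor, by 0.66 ± 0.22 (adjusted p = 0.0418). In Ex3aERKO (7.89% of features called) 2 of the 10 rose, Lrp2 by 1.72 ± 0.37 (adjusted p = 0.0109) and Boc by 1.06 ± 0.22 (adjusted p = 0.00793), and 0 fell. The list's median difference was 0.32, 0.13 and 0.40 in Ex3aERKO, Ex3bERKO and Ex3abERKO.

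Macrophage genes, like the reception genes, were called only upward against control. Between Ex3abERKO and Ex3aERKO the lists parted: the median difference was 0.84 for macrophage genes and -0.09 for reception genes. In that comparison 1 macrophage and 2 reception genes were called, all higher, where 4.40% of all features were. All 10 macrophage markers rose in Ex3abERKO (10.6% of all features did) and 4 of 10 in Ex3aERKO (7.89% of features called). Their summed signal was 185 to 290 on the control arrays, 330 to 488 on the Ex3aERKO arrays, 255 to 413 on the Ex3bERKO arrays and 566 to 618 on the Ex3abERKO arrays. Of 9 stromal markers, 5 rose and 1 fell in Ex3abERKO, with sums of 163 to 240 in control and 298 to 536 in Ex3abERKO. Their part in the reception genes was not tested.

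Kinases, adaptors and cilium proteins that set Gli processing were called only downward in Ex3abERKO, 3 of 14, close to the 22.2% called among all features (11.6% lower). Btrc, which marks phosphorylated Gli protein for processing, fell by 0.96 ± 0.19 (limma adjusted p = 0.00239). Tulp3, which carries receptors into the cilium, fell by 0.75 ± 0.19 (adjusted p = 0.0111), and Gsk3b, a kinase of Gli proteins, by 0.51 ± 0.15 (adjusted p = 0.0226). None of the 14 was called in either single knockout.

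Genes known to respond to Hedgehog in other tissues moved in both directions. Of 13 tested, 1 rose and 2 fell in Ex3abERKO, a share near the 22.2% called among all features. Osr2, an odd-skipped zinc finger factor, fell by 2.71 ± 0.40 (limma adjusted p = 0.00038), from 0.02, -0.38, 0.56 and -0.41 in control to -2.40, -1.95, -4.01 and -2.69. Jag2, a Notch ligand, fell by 0.80 ± 0.25 (adjusted p = 0.0306), and Bcl2, a survival factor, rose by 0.96 ± 0.20 (adjusted p = 0.00334). In Ex3aERKO, where 7.89% of all features were called, 2 rose and 1 fell: Osr1 by 1.54 ± 0.38 (adjusted p = 0.0220), Bcl2 by 0.70 ± 0.20 (adjusted p = 0.0418), and Jag2 fell by 1.32 ± 0.25 (adjusted p = 0.00457). In the interaction (3.52% of features called) 1 of the 13 was called, Snai1, a factor of epithelial to mesenchymal change, at 0.97 ± 0.23 (adjusted p = 0.0339).

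Genes for ligand release, 8 in all, gave 0 calls against control in limma in any knockout. Of 17 genes of the primary cilium, 1 rose and 1 fell in Ex3abERKO, a smaller share than the 22.2% of all features, and both were intraflagellar transport genes: Ift57 by 0.69 ± 0.18 (limma adjusted p = 0.0149), and Ift140 fell by 0.61 ± 0.21 (adjusted p = 0.0487). In Ex3bERKO none of the genes of these 5 lists was called, and 1.00% of all features were.

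**Figure D5:**
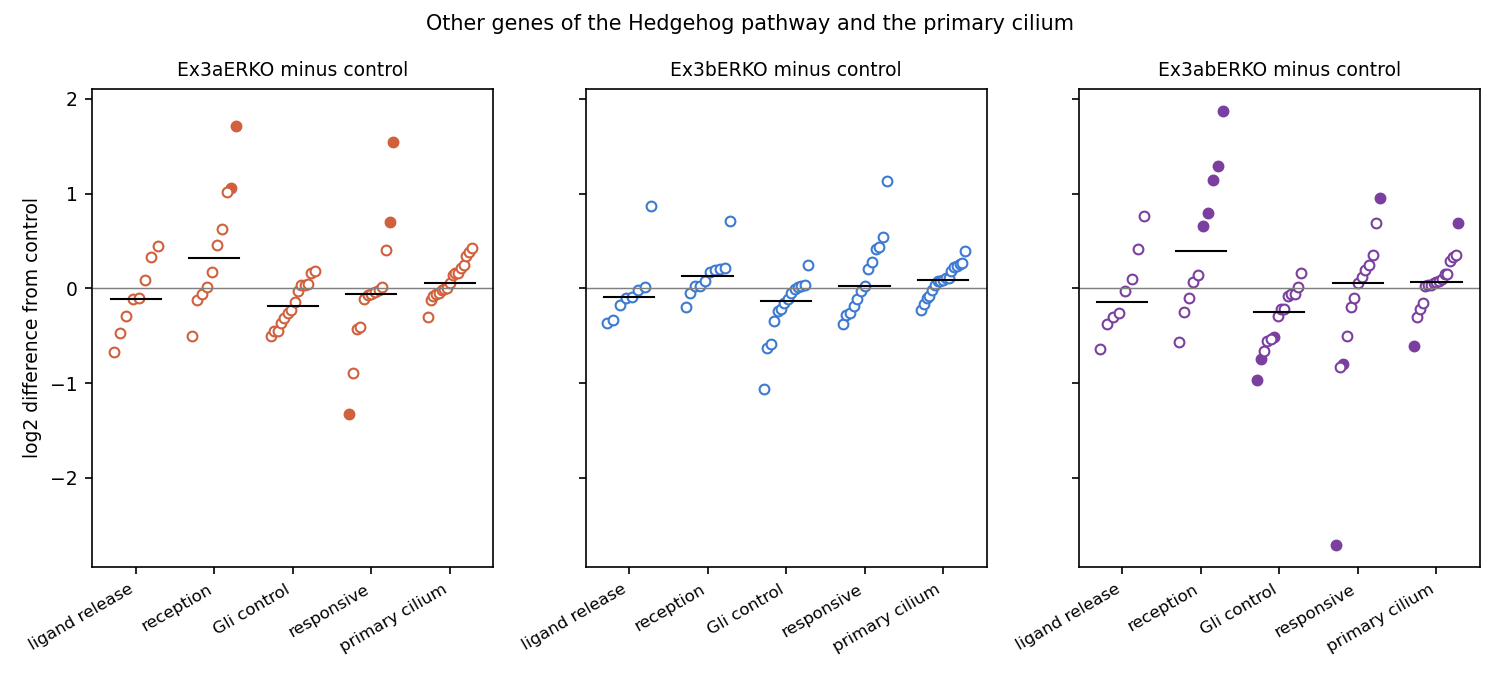
Log2 difference from control (y axis) of each tested gene in 5 pathway lists (x axis), 1 panel per knockout; filled points had a limma adjusted p under 0.05 and the black lines are list medians. In Ex3abERKO the 5 filled reception genes lie between 0.66 and 1.88, and the lowest point is Osr2 at -2.71.

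Summed granulosa, theca and oocyte signal was low in Ex3abERKO, where Ihh and Hhip were lowest, and in the single knockouts the sums did not all run parallel to both genes. These are whole ovaries, so fewer cells of a type and less RNA per cell cannot be told apart. Granulosa genes, 12 in all and each well above background on every array, summed to 136 to 247 on the control arrays, 155 to 382 on the Ex3aERKO arrays, 128 to 203 on the Ex3bERKO arrays and 36.4 to 101 on the Ex3abERKO arrays. In Ex3abERKO 6 of 12 fell (11.6% of all features did) and 6 were not called. Foxl2 overlapped, at -2.43 to -2.03 in control and -2.64 to -2.31 in Ex3abERKO. The highest granulosa sum, 382, was in Ex3aERKO 4, the array with the highest Ihh and the lowest oocyte sum, 2.10. The median granulosa sum was 144 in control and 170 in Ex3bERKO, where all Ihh levels lay below control. Theca and Leydig genes summed to 304 to 442 on the control arrays and 81.7 to 150 on the Ex3abERKO arrays. The sums were 266 to 335 in Ex3aERKO and 246 to 300 in Ex3bERKO. Of the 12 genes, 2 rose and 5 fell in Ex3abERKO, where 10.6% of all features rose and 11.6% fell. In Ex3aERKO 3 rose and 3 fell (7.89% of all features called), and in Ex3bERKO 2 rose and 1 fell (1.00% called). Hsd3b1, the brightest in control, read 7.64 to 8.02 there and 5.46 to 6.91 in Ex3abERKO. Insl3 ran the other way, at most -0.02 in control but at least 6.49 in Ex3aERKO and 1.89 in Ex3abERKO. In Ex3aERKO so did Hsd17b3 (at least 1.17, control at most -4.34) and Cyp17a1 (at least 3.08, control at most 2.16). In Ex3abERKO Hsd17b3 (at least -4.28) lay above control too, and Cyp17a1 (0.28 to 0.64) lay within the control range (0.07 to 2.16). Of 11 oocyte genes, 9 fell in Ex3aERKO and 7 in Ex3abERKO, with sums of 24.8 to 53.6 on the control arrays, 2.10 to 10.2 on the Ex3aERKO arrays (7.89% of all features were called there), 26.2 to 89.9 (median 83.7, against 40 in control) on the Ex3bERKO arrays and 7.11 to 11.4 on the Ex3abERKO arrays. The part of these cell types in the levels of Ihh and Hhip was not tested.

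Of 12 Sertoli genes, 9 rose and 1 fell in Ex3abERKO (22.2% of all features were called) and 6 rose in Ex3aERKO (7.89% called), with sums of 55.6 to 82.0 on the control arrays, 86.0 to 164 on the Ex3aERKO arrays, 72.2 to 108 on the Ex3bERKO arrays and 77.1 to 164 on the Ex3abERKO arrays. Most of the control sum came from 1 gene, Clu, at 5.67 to 6.30 there, with no other Sertoli gene above 1.22. In Ex3aERKO Clu read 5.46 to 6.49 and Ptgds 5.02 to 5.67. Rhox5 read -2.37 to -1.72 in control and lower, -3.21 to -2.72, in Ex3abERKO. Dhh, the ligand of Sertoli cells in the testis, was not called in Ex3abERKO or Ex3aERKO against control. Schwann cells of nerves also make Dhh. Of 10 Schwann genes, 5 rose and 0 fell in Ex3abERKO. Their summed signal was 15.5 to 21.7 on the control arrays, 22.2 to 28.9 on the Ex3aERKO arrays, 19.6 to 29.5 on the Ex3bERKO arrays and 33.1 to 48.4 on the Ex3abERKO arrays. Their part in the level of Dhh was not tested.

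The genes whose levels followed each member most closely were sought among 16172 named features well above background on all 16 arrays, by Pearson r over the arrays, for the 7 members that met the same rule (Hhip and Shh did not). Arrays of a group share their genotype, so r with the group means removed is given second. For Ihh they were Car14, a carbonic anhydrase (0.978, then 0.976), Alms1 (0.948, 0.884) and Kcne2, a potassium channel subunit (0.947, 0.919). These values lean on Ex3aERKO 4: over the other 15 arrays, a set chosen after its levels were seen, they were 0.959 and 0.739 for Car14, 0.919 and 0.278 for Alms1 and 0.899 and 0.497 for Kcne2. For Dhh they were Rimklb (0.931, 0.899), Eme1 (0.916, 0.907) and Sel1l3 (0.916, 0.903). For Gli1 they were Tdgf1 (0.934, 0.874), Ftdc2 (0.930, 0.857) and Fbxo16 (0.929, 0.861), and for Gli3 S100a11 (0.950, 0.903), Exoc3l4 (0.938, 0.836) and Islr (0.912, 0.728), which were 0.647, 0.312 and 0.455 with group means removed over the 15 arrays. For the other 3 members the closest genes had a lower r. For Gli2 they were Umod (0.836, 0.831), Dpysl3 (0.834, 0.894) and Emilin1 (0.816, 0.877). For Ptch1 they were Cdc7 (0.863, 0.855), Spata31d1d (0.83, 0.781) and 4632427E13Rik (0.827, 0.858), and for Smo Csnk1d (0.892, 0.915), Dync2h1 (0.851, 0.860) and Taf8 (0.839, 0.867).

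Among the members themselves, Ihh and Hhip had r = 0.724 over the 16 arrays and 0.43 with group means removed, and Ihh and Gli3 had -0.901 and -0.871. Without Ex3aERKO 4, the highest array for Ihh and the lowest for Gli3, Ihh and Gli3 had -0.811 and, with group means removed, -0.225, and Ihh and Hhip had 0.908 and 0.675. Dhh and Ihh had 0.332, and 0.797 with group means removed, and these were 0.121 and 0.545 without Ex3aERKO 4. Gli1 and Hhip, both targets of the pathway, had 0.604 and 0.057, and Gli1 and Ptch1 0.279 and 0.069. These are descriptions over 16 arrays that share genotypes and slides.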

How the data were processed

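Total RNA of whole ovaries was hybridised to 1-colour (Cy3) Agilent arrays. Per the file headers, the deposited intensity values came from Agilent Feature Extraction 9.5.3.1 (9.5 per the submitters' processing notes), with probes placed on mm7, and were background-subtracted and detrended within each array. The deposited series table held the same intensities for all 41174 probes (relative tolerance 1e-04), with column medians of 149 to 253. From these intensities, log2 of the processed signal minus the array's 75th percentile over 43379 non-control spots was computed, with a floor at -8.88. Outlier spots were left out, spots of a probe were averaged, and a probe counted as well above background where more than 50% of its spots did. Probes well above background on at least 4 of 16 arrays were kept, and the brightest stood for its gene.

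Names came from RefSeq by accession for 22951 probes, by current symbol for 6659 and by older symbol for 3109, and 8455 stayed unnamed. limma 3.58.1 in R 4.3.3 fitted 1 mean per group over 16 arrays (12 residual degrees of freedom), with Benjamini-Hochberg adjustment over 24590 features and a threshold of 0.05. Errors after ± are standard errors of a difference or, where marked, SD over arrays (n = 4). The fit was tested on simulated data. Of planted log2 changes of 1 it called 26% to 45% in the comparisons between groups and 14% in the interaction. Of planted changes of 2 it called 67% to 81% and 56%, with 3 to 11 false calls among 24590 features. A gene that was not called can therefore still differ. The 9 members were named throughout, and from the pathway lists the called genes, at most 6 a list. Members, gene lists and alternatives were chosen with earlier results of these data known. Promoters came from RefSeq (GRCm38.p6), a build other than mm7, and were joined by symbol only. Alternatives changed the scaling, background correction, filter, slide, replicate block, array weights, arrays in the fit and the probe used.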

Additional observations from a re-analysis of the deposited data

Results flagged for a closer look

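Of 32 groups of 4 arrays looked at for the 8 tested genes, 4 held an array whose gap to the nearest other was past Dixon's 95% critical value, and chance gives about 1 in 20 groups. Of the 4, 3 were the same array, Ex3aERKO 4. Its Ihh level of 2.33 stood above the other Ex3aERKO arrays, which lay between -2.36 and -1.74. Its Smo level of 4.20 stood above theirs of 3.70 to 3.78, and its Gli3 level of -2.33 below theirs of -1.52 to -1.38. The same array had the highest granulosa sum of the series, 382, and the lowest oocyte sum, 2.10. The fourth was Hhip in control 2, at -1.76, where the other control arrays lay between -2.93 and -2.80.

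Shh, which entered no comparison, had most spots well above background on 3 arrays (Ex3aERKO 2, Ex3aERKO 3 and Ex3abERKO 2), while all 4 control arrays had 0 such spots.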

How the results depend on the processing

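The number of arrays, 4 a group, limits the precision, and Shh, the second Hhip probe in Ex3abERKO and the 10-spot Gli3 probe lay at background. Of 56 member differences (8 genes in 7 comparisons), 20 kept direction and side of the threshold in every alternative run for them (29 or 30), and 0 of the 8 called differences changed sign. The lower Ihh and Hhip of Ex3abERKO against control kept their calls in every alternative that tested them (Ihh -3.77 to -2.64, adjusted p 9.25e-06 to 0.0323, and Hhip -4.49 to -2.32, adjusted p 4.29e-05 to 0.00200, limma), and Hhip was not tested where all 16 arrays had to be well above background. The interaction uses all 4 groups, so it had no alternative with only the groups compared. The cause of the changes below was not tested.

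Replicate numbers did not pair the arrays. With group means removed, same-numbered arrays of different groups had a median r of -0.0691 over 24 pairs. Differently numbered arrays of different groups had -0.026 over 72 pairs, and 4 of 16 arrays correlated best with their own number. The replicate block changed the call of Gli1 in Ex3abERKO minus Ex3bERKO (adjusted p = 0.0608 in limma). Also with group means removed, arrays of different groups had a median r of 0.277 over 22 pairs on the same slide. On different slides it was -0.0737 over 74 pairs. Normexp moved the median of all features against control by -0.26 in Ex3aERKO, -0.282 in Ex3bERKO and -0.258 in Ex3abERKO, so its differences are read relative to that.

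The counts against which these compare were 1941 features in Ex3aERKO minus control, 246 in Ex3bERKO minus control, 5468 in Ex3abERKO minus control, 1895 in Ex3abERKO minus Ex3aERKO, 4091 in Ex3abERKO minus Ex3bERKO, 566 in Ex3aERKO minus Ex3bERKO and 866 in the interaction. With normexp background correction, the members called were 1 in Ex3aERKO minus control, 0 in Ex3abERKO minus Ex3aERKO and 0 in Ex3abERKO minus Ex3bERKO, and the features called were 944 in Ex3aERKO minus control, 150 in Ex3bERKO minus control, 3116 in Ex3abERKO minus control, 746 in Ex3abERKO minus Ex3aERKO, 1937 in Ex3abERKO minus Ex3bERKO, 230 in Ex3aERKO minus Ex3bERKO and 336 in the interaction. With slide as a fixed block, the members called were 1 in Ex3aERKO minus control and 1 in Ex3abERKO minus Ex3bERKO, and the features called were 2147 in Ex3abERKO minus Ex3bERKO. With slide as a random block, the members called were 1 in Ex3aERKO minus control. With array weights, the members called were 2 in Ex3aERKO minus control, 5 in Ex3abERKO minus Ex3bERKO and 1 in Ex3aERKO minus Ex3bERKO, and the features called were 5457 in Ex3aERKO minus control, 833 in Ex3bERKO minus control, 8880 in Ex3abERKO minus control, 6362 in Ex3abERKO minus Ex3bERKO, 1602 in Ex3aERKO minus Ex3bERKO and 1877 in the interaction. With only the groups compared in the fit, the members called were 1 in Ex3aERKO minus control and 1 in Ex3abERKO minus Ex3aERKO, and the features called were 85 in Ex3bERKO minus control, 608 in Ex3abERKO minus Ex3aERKO, 2460 in Ex3abERKO minus Ex3bERKO and 117 in Ex3aERKO minus Ex3bERKO. Without Ex3aERKO 2, Ex3abERKO 2 and control 4 (the most liver, oviduct and erythroid signal), the members called were 1 in Ex3abERKO minus Ex3bERKO, and the features called were 535 in Ex3aERKO minus control, 63 in Ex3bERKO minus control, 3243 in Ex3abERKO minus control, 849 in Ex3abERKO minus Ex3aERKO, 2454 in Ex3abERKO minus Ex3bERKO, 234 in Ex3aERKO minus Ex3bERKO and 250 in the interaction. Without Ex3aERKO 4 and those 3 arrays, an alternative chosen after seeing the data, the members called were 1 in Ex3aERKO minus control, 1 in Ex3bERKO minus control and 1 in Ex3abERKO minus Ex3aERKO, and the features called were 396 in Ex3aERKO minus control, 52 in Ex3bERKO minus control, 3613 in Ex3abERKO minus control, 248 in Ex3abERKO minus Ex3aERKO, 94 in Ex3aERKO minus Ex3bERKO and 155 in the interaction. From the authors' series table, the members called were 1 in Ex3abERKO minus Ex3bERKO. With probes well above background on all 16 arrays, the members called were 1 in Ex3abERKO minus Ex3bERKO. With the replicate block, the members called were 1 in Ex3abERKO minus Ex3bERKO. Leaving out each array in turn, the members called were 0 to 2 in Ex3aERKO minus control, 0 to 1 in Ex3bERKO minus control, 2 to 4 in Ex3abERKO minus control, 3 to 3 in Ex3abERKO minus Ex3aERKO, 1 to 5 in Ex3abERKO minus Ex3bERKO, 0 to 1 in Ex3aERKO minus Ex3bERKO and 0 to 0 in the interaction. The features called were then 1126 to 2620 in Ex3aERKO minus control, 107 to 364 in Ex3bERKO minus control, 3892 to 6337 in Ex3abERKO minus control, 1107 to 2286 in Ex3abERKO minus Ex3aERKO, 2399 to 5062 in Ex3abERKO minus Ex3bERKO, 282 to 869 in Ex3aERKO minus Ex3bERKO and 502 to 1336 in the interaction.

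In all, 75 values of 21 differences changed sign, none of them called. Signs were counted on the raw values, and the normexp values against control hold the median shift given above (-0.26 in Ex3aERKO, -0.282 in Ex3bERKO and -0.258 in Ex3abERKO). Read relative to that shift, the normexp values of Ptch1, Gli2 and Gli3 against control kept the sign of the main fit. Those of Gli1 and Smo did not. With normexp background correction, they were Ptch1 -0.042 in Ex3aERKO minus control, Gli1 -0.34 in Ex3bERKO minus control, Gli2 -0.023 in Ex3bERKO minus control, Gli3 -0.10 in Ex3bERKO minus control, Smo 0.021 in Ex3abERKO minus control, Gli2 -0.094 in Ex3abERKO minus control, Dhh -0.024 in Ex3abERKO minus Ex3aERKO, Smo 0.027 in Ex3aERKO minus Ex3bERKO, Gli1 0.27 in the interaction and Hhip 0.58 in the interaction. With array weights, they were Smo -0.10 in Ex3aERKO minus control, Gli2 0.067 in Ex3aERKO minus control and Gli2 0.11 in Ex3abERKO minus Ex3bERKO. Without Ex3aERKO 2, Ex3abERKO 2 and control 4 (the most liver, oviduct and erythroid signal), they were Smo -0.041 in Ex3aERKO minus control, Smo -0.047 in Ex3bERKO minus control, Gli1 -0.0041 in Ex3bERKO minus control, Ptch1 0.047 in Ex3abERKO minus control, Gli2 -0.0039 in Ex3abERKO minus control, Dhh -0.091 in Ex3abERKO minus Ex3aERKO, Smo 0.0063 in Ex3aERKO minus Ex3bERKO and Gli2 -0.045 in the interaction. With the mean of the kept probes, they were Smo -0.013 in Ex3aERKO minus control, Smo -0.069 in Ex3bERKO minus control, Gli2 -0.11 in Ex3bERKO minus control, Gli2 -0.16 in Ex3abERKO minus control and Smo 0.057 in Ex3aERKO minus Ex3bERKO. Without Ex3aERKO 4 and those 3 arrays, an alternative chosen after seeing the data, they were Smo -0.19 in Ex3aERKO minus control, Gli2 0.12 in Ex3aERKO minus control, Smo -0.047 in Ex3bERKO minus control, Gli1 -0.0041 in Ex3bERKO minus control, Ptch1 0.047 in Ex3abERKO minus control, Gli2 -0.0039 in Ex3abERKO minus control, Gli2 -0.12 in Ex3abERKO minus Ex3aERKO, Smo 0.023 in the interaction and Gli2 -0.36 in the interaction. With slide as a fixed block, they were Ptch1 0.0094 in Ex3abERKO minus control and Smo 0.00057 in Ex3aERKO minus Ex3bERKO. With quantile normalization, they were Dhh -0.026 in Ex3abERKO minus Ex3aERKO and Smo 0.025 in Ex3aERKO minus Ex3bERKO. Leaving out each array in turn, the ranges that crossed 0 were Ihh -1.21 to 0.35 in Ex3aERKO minus control, Smo -0.11 to 0.056 in Ex3aERKO minus control, Gli2 -0.29 to 0.064 in Ex3aERKO minus control, Smo -0.11 to 0.14 in Ex3bERKO minus control, Gli1 -0.018 to 0.15 in Ex3bERKO minus control, Ptch1 -0.34 to 0.024 in Ex3abERKO minus control, Smo -0.20 to 0.059 in Ex3abERKO minus control, Gli2 -0.074 to 0.38 in Ex3abERKO minus control, Dhh -0.28 to 0.52 in Ex3abERKO minus Ex3aERKO, Smo -0.20 to 0.055 in Ex3abERKO minus Ex3aERKO, Smo -0.24 to 0.025 in Ex3abERKO minus Ex3bERKO, Gli2 -0.29 to 0.16 in Ex3abERKO minus Ex3bERKO, Smo -0.14 to 0.12 in Ex3aERKO minus Ex3bERKO, Smo -0.25 to 0.020 in the interaction and Gli2 -0.17 to 0.32 in the interaction.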

Other observations

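Pathway genes outside the member list also differed between knockouts. Osr2 was lower in Ex3abERKO than in Ex3aERKO (difference -1.82 ± 0.40, limma adjusted p = 0.0138) and than in Ex3bERKO (-2.45 ± 0.40, adjusted p = 0.00138). Gas1 was higher in Ex3abERKO than in Ex3bERKO by 1.80 ± 0.34 (adjusted p = 0.00334). Arrb2 was higher in Ex3abERKO than in either single knockout, by 0.68 ± 0.15 over Ex3aERKO (adjusted p = 0.0138) and 0.94 ± 0.15 over Ex3bERKO (adjusted p = 0.00119). Gsk3b was lower in Ex3abERKO than in either, with differences of -0.70 ± 0.15 (adjusted p = 0.0113) and -0.53 ± 0.15 (adjusted p = 0.0254). Snai1 was higher in Ex3abERKO than in Ex3aERKO by 0.79 ± 0.16 (adjusted p = 0.0106) and than in Ex3bERKO by 0.54 ± 0.16 (adjusted p = 0.0381). Scube2, which helps release ligand from the cell, was higher in Ex3abERKO than in Ex3bERKO by 0.79 ± 0.23 (adjusted p = 0.0323). Lrp2 was higher in Ex3aERKO than in Ex3bERKO by 1.77 ± 0.37 (adjusted p = 0.0203), and Jag2 was lower (-1.05 ± 0.25, adjusted p = 0.0393). These comparisons share arrays with those against control.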
